A study of Homo sapiens with 24 samples.

Results

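The ABC transporter genes were taken as every gene symbol in both count tables that consists of ABC, a subfamily letter from A to G and a number. This gave 46 genes of the 28277 in each table. They were measured by RNA-seq in 24 libraries of the ovarian adenocarcinoma lines PEO1 and PEO4, in 8 conditions with 3 biological replicates each, as the series states. PEO1 A is the wildtype PEO1 line without functional BRCA2, a gene of homologous recombination repair, and PEO4 A is the BRCA2-proficient counterpart. Both were sequenced untreated, in a table of 6 libraries. PEO1 B is PEO1 in which BRCA2 function has been regained by a spontaneous reversion mutation (genotype BRCA2+ in the labels), and PEO4 B is its partner (genotype WT). Both were sequenced untreated and after 2 or 6 h in medium with 5 µM pyridostatin (PDS), a small molecule that binds and stabilises G-quadruplexes, in a table of 18 libraries. The labels name no vehicle for the untreated cells. Because the tables were prepared and counted apart, levels in one are set beside those in the other without a test.

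ABC proteins bind and hydrolyse ATP on conserved nucleotide-binding domains, and most use that energy to move a substrate across a membrane. Members of subfamilies B, C and G export drugs and drug conjugates from cells, which is why they are followed in chemotherapy-resistant tumours, while subfamily A and several G members move sterols and phospholipids. Others work in mitochondria, lysosomes or peroxisomes, regulate channels, or, in subfamilies E and F, lack membrane-spanning domains and act on ribosomes. P-glycoprotein (ABCB1) is best known for taxanes and anthracyclines, and ABCC2 for glutathione conjugates, platinum conjugates among them.

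The filter on low counts kept 32 of the 46 genes in the table of 6 libraries and the same 32 plus ABCC11 in the table of 18, so that 13 were tested in neither. Those 13 were ABCA6, ABCA8, ABCA9, ABCA10, ABCB5, ABCB11, ABCC8, ABCC12, ABCC13, ABCD2, ABCF1, ABCG5 and ABCG8, with at most 12 counts in any library. ABCF1, a translation factor that is abundant in most cells, was listed at 0 in all 24 libraries. It lies in the MHC region of chromosome 6, where 47 of 146 protein-coding genes (32.2%) were listed at 0 throughout against 7.79% of the others, so its value was not read as a level. By role, the 18-library table held 9 tested drug efflux genes of 10, 11 lipid transport genes of 17, all 5 mitochondrial and lysosomal genes, 3 of 4 peroxisomal and cobalamin genes, 2 of 5 genes for mineralization and channel subunits, and 3 of 4 translation genes.

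PDS acts on G-rich DNA, so the sequence before the gene start is shown for 5 members that fell or rose after PDS in PEO4 B. Of these, 2 fell and hold no G-rich motif, 1 fell and holds it, and 2 rose, 1 with and 1 without it. G-rich sites elsewhere in or around the genes were not searched. The 250 bases before the annotated start come from RefSeq (GRCh38.p14), which matched 35 of the 46 members. Only the first listed start of each gene was used, and alternative starts were not searched. All 5 genes lie on the minus strand and are written 5′ to 3′ in the direction of transcription. The motif searched was 4 runs of GGG separated by gaps of 1 to 7 bases of any kind, on either strand. Capitals mark it, as G runs on the printed strand or as C runs where it lies on the other.
ABCA2 (chr9:137028923-137029172): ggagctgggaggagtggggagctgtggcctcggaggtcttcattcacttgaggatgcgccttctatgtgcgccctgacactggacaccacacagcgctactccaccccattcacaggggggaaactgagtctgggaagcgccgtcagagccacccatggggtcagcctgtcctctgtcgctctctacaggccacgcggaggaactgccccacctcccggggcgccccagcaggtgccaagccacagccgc
ABCA12 (chr2:215138627-215138876): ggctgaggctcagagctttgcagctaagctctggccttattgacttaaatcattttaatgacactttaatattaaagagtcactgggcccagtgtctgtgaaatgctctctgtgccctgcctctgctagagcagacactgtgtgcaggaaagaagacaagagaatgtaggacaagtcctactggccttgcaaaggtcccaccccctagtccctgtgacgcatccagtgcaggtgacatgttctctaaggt
ABCC6 (chr16:16223495-16223744): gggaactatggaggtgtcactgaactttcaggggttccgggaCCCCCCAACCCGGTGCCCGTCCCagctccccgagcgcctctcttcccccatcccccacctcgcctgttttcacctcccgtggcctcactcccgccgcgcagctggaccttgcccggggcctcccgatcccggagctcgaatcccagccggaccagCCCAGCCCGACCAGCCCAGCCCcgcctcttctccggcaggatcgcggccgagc
ABCA1 (chr9:104928156-104928405): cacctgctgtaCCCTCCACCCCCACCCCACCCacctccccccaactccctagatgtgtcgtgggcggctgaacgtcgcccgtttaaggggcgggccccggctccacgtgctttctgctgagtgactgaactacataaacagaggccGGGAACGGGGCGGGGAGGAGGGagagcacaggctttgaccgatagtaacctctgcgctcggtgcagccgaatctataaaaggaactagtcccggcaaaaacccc
ABCG2 (chr4:88231627-88231876): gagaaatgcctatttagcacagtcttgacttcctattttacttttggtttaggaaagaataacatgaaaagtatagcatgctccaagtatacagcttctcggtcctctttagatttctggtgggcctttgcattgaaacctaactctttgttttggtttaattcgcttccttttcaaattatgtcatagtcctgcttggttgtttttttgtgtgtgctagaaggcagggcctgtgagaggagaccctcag

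The motif was found in 7 of the 35 windows (20%), those of ABCA1, ABCB6, ABCB8, ABCB9, ABCB10, ABCC6 and ABCF3, against 22.5% of all 27305 promoters in the RefSeq table. Among promoters of genes tested in the 18-library table the share was 31.8%, and among the 26 tested members with a promoter it was 26.9%. ABCC6 held it at 2 places, and ABCA1 held it once on each strand. G and C made up 70.8% of the ABCC6 window, 65.2% of that of ABCA2 and 40.0% of that of ABCG2. These values describe the windows searched and not other starts of the same genes. ABCC1, ABCC3 and ABCA4 had no entry in the table. For PEO4 B at 6 h, by the rule given next, the motif could be looked up only in tested members with a window. Among these, 1 of 4 that fell and 1 of 5 that rose held it, beside 5 of 17 that were not called. In all, 8 members fell there and 6 rose, and the rest, ABCC1, ABCC3 and ABCA4 among them, had no window.

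Levels are library-scaled counts (CPM, with TMM factors), given as mean ± SD over 3 libraries. Differences are log2 fold changes from edgeR's quasi-likelihood test, fitted to all genes of a table. A gene was called where the Benjamini-Hochberg adjusted p over all tested genes was under 0.05 and the absolute log2 fold change over 1, and only called genes are said to rise, fall or be higher or lower. Counts on genes summed to between 32528913 and 63882077 in the 6-library table. In the 18-library table they summed to between 18699929 and 22375644 in untreated libraries and to between 33260167 and 43713947 after PDS. The share of counts on rRNA genes was 0.217% to 0.473% in the untreated and 0.0163% to 0.0369% in the PDS libraries of that table, so depth, rRNA share and treatment cannot be told apart. All 8 epithelial and Müllerian carcinoma markers, PAX8 and WT1 among them, reached 1 CPM in every library. Replicate 1 of PEO4 A stood apart from the other libraries of its group (chi-square per degree of freedom 44.5 and 52.1, against 9.50 between the others). So did replicate 1 of PEO1 A (17.2 and 19.7, against 5.35) and replicate 2 of PEO4 B after 2 h of PDS (15 and 22.5, against 5.6). The untreated PEO4 B libraries differed among themselves by 14.4 to 26.3. Without PEO4 A replicate 1 the A pair gave 4 members higher and 9 lower, and without that 2 h replicate PEO4 B gave 4 higher and 7 lower at 2 h, beside the 4 and 8, and 3 and 8, given below for all libraries. Where a named call was lost without 1 of these libraries, that is stated, and other values may move without them. Leaving out each A library in turn gave 3 to 4 members higher and 8 to 9 lower. In bulk RNA, fewer cells that express a gene and less RNA per cell cannot be told apart.

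Drug efflux genes. By the mean over the untreated groups, the drug efflux genes with the highest levels per length were ABCC3, ABCC5 and ABCC1. The drug pumps ABCB1 and ABCG2 ranked between 26 and 40 of the 46 members by level per length in every condition. ABCB1 (chromosome 7, 87503017 to 87713323) held 2 to 30 counts in any library. Its CPM were 0.167, 0.801 and 0.338 in PEO1 A and 0.277, 0.113 and 0.367 in PEO4 A. The groups overlapped (log2 fold change -0.73 ± 0.62 standard error, edgeR adjusted p = 0.329), and at these counts a difference was not detectable. In PEO1 B its mean went from 0.242 ± 0.139 untreated to 0.431 ± 0.0808 at 2 h and 0.392 ± 0.173 at 6 h, and in PEO4 B from 0.234 ± 0.132 to 0.276 ± 0.121 and 0.359 ± 0.0269. No comparison of ABCB1 passed the threshold, and the 95% interval of the 6 h change in PEO4 B spanned -0.39 to 1.64 on the log2 scale. ABCB5, another P-glycoprotein relative, held 0 to 6 counts and was not tested.

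ABCG2 (breast cancer resistance protein, an exporter of camptothecins and other drugs; chromosome 4, 88090150 to 88231628) was low throughout and lower still in PEO4. PEO1 A held 44, 26 and 39 counts and PEO4 A held 0, 2 and 0. PEO1 B held 20, 25 and 28 counts and PEO4 B held 1, 1 and 2. The groups did not overlap in either pair. From the summed counts, ABCG2 was 52.3-fold lower in PEO4 A (95% exact interval 14.1 to 437) and 17.4-fold lower in PEO4 B (6.52 to 65.6), where intervals cover counting error only. The fitted log2 fold changes were -5.44 ± 0.78 and -4.04 ± 0.54 (edgeR adjusted p = 5.50e-05 and 3.63e-07), and the first, which depends on 2 counts, moved to -8.21 without PEO4 A replicate 2 and to -4.60 without replicate 1. After PDS, PEO4 B held 5, 2 and 7 counts at 2 h and 11, 11 and 10 at 6 h. At 6 h ABCG2 had risen 4.79-fold over untreated PEO4 B by summed counts (1.70 to 18.6, log2 fold change 2.19 ± 0.65, edgeR adjusted p = 0.00425), from a base of 4 counts. At 2 h the ratio was 2.01 (0.630 to 8.36). In PEO1 B the level moved the other way, from 1.07 ± 0.140 CPM to 0.866 ± 0.293 and 0.662 ± 0.243, without passing the threshold (log2 fold change -0.69 ± 0.32 at 6 h, edgeR adjusted p = 0.0683).

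ABCC3 (multidrug resistance-associated protein 3, on chromosome 17, 50634777 to 50692253) exports glucuronides and other organic anions. It gave the largest change of any drug efflux gene tested after PDS. Untreated PEO4 B libraries held 134, 80.8 and 163 CPM. After 2 h they held 6.11, 6.79 and 5.28 CPM, and after 6 h 2.24, 1.92 and 2.21 CPM. Every PDS library lay below every untreated one. The fall was 20.9-fold at 2 h and 59.1-fold at 6 h (log2 fold change -4.39 ± 0.22 and -5.88 ± 0.26, edgeR adjusted p = 7.86e-10 and 1.02e-10), and from 2 to 6 h the log2 fold change was a further -1.5 ± 0.30. Without the low replicate 2 of untreated PEO4 B the values were -4.62 and -6.11. In PEO1 B the same gene went from 52.0, 52.8 and 60.6 CPM to 43.5, 39.7 and 41.3 at 2 h and 42.0, 40.8 and 35.8 at 6 h, log2 fold changes of -0.41 ± 0.19 and -0.48 ± 0.19 that did not reach the fold threshold. The test of the difference between the lines gave -3.97 ± 0.29 at 2 h and -5.40 ± 0.32 at 6 h (edgeR adjusted p = 1.86e-07 and 1.72e-08). Untreated, ABCC3 was higher in PEO4 B than in PEO1 B (log2 fold change 1.20 ± 0.19), a call lost without PEO4 B replicate 3 (0.97). In the A pair it stood at 117 ± 5.72 CPM in PEO1 and 83.1 ± 7.81 in PEO4 (-0.50 ± 0.08), opposite in sign and within the fold threshold.

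ABCC1 (multidrug resistance-associated protein 1, on chromosome 16, 15949138 to 16143257) exports glutathione conjugates and anthracyclines. It did not separate the A lines, with 32.0 ± 2.78 and 34.1 ± 1.86 CPM. In the B pair it read 54.1 ± 1.64 CPM in PEO1 and 98.2 ± 12.8 in PEO4 (log2 fold change 0.86 ± 0.07). After PDS it fell in PEO4 B from 106, 83.3 and 105 CPM to 34.9, 36.1 and 36.7 at 2 h and 25.0, 23.5 and 24.5 at 6 h, with no overlap (log2 fold change -1.45 ± 0.07 and -2.01 ± 0.07, edgeR adjusted p = 1e-14 and 6.41e-17). PEO1 B went down to the same level of 32.7 CPM at both times (-0.73 ± 0.07 each), inside the fold threshold although the libraries did not overlap. By the test of the difference, PEO4 B fell further at 6 h (-1.28 ± 0.10), while the difference at 2 h (-0.72 ± 0.10) was within the fold threshold.

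ABCC2 (multidrug resistance-associated protein 2, on chromosome 10, 99782640 to 99852594) was low and was lower in PEO4 in both pairs. It held 133, 92 and 140 counts in PEO1 A against 4, 8 and 12 in PEO4 A, and 57, 71 and 57 in PEO1 B against 9, 10 and 6 in PEO4 B. The log2 fold changes were -3.74 ± 0.45 and -2.80 ± 0.26 (edgeR adjusted p = 1.17e-05 and 5.75e-10). Leaving out PEO4 A replicate 1 or 3 moved the first to -3.13 or -4.36. After 6 h of PDS it rose in PEO4 B from 0.389 ± 0.113 to 1.10 ± 0.0929 CPM (log2 fold change 1.51 ± 0.28), which still lay below the 2.72 ± 0.215 CPM of untreated PEO1 B. In PEO1 B it read 4.22 ± 0.257 CPM at 2 h (0.63 ± 0.17) and 3.38 ± 0.126 at 6 h (0.31 ± 0.17), neither past the fold threshold.

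ABCC4 (multidrug resistance-associated protein 4, on chromosome 13, 95019835 to 95301475) exports cyclic nucleotides and nucleotide analogues. It had changes of opposite sign in the 2 lines after PDS. PEO1 B libraries went from 11.0, 9.34 and 9.88 CPM to 16.1, 16.1 and 18.6 at 2 h, while PEO4 B went from 9.79, 7.03 and 11.2 to 4.89, 3.99 and 4.90. Neither pair of groups overlapped. The fall in PEO4 B was called at 2 h (log2 fold change -1.03 ± 0.13, edgeR adjusted p = 2.19e-07), close to the threshold, and the change in PEO1 B (0.75 ± 0.12) was not. That PEO4 B call was lost in counts thinned to the smallest library (-0.93) and without untreated replicate 1 (-0.99) or 3 (-0.88) or 2 h replicate 2 (-0.93). The difference between the lines was -1.78 ± 0.18 at 2 h and -1.03 ± 0.17 at 6 h. The second lost its call without 1 of 4 libraries: -0.98 without PEO1 B untreated replicate 2, -0.99 without PEO1 B 6 h replicate 3, -0.999 without PEO4 B untreated replicate 1 and -0.88 without its replicate 3. Untreated, ABCC4 was higher in PEO4 A than in PEO1 A, 20.7 ± 5.51 against 7.95 ± 1.24 CPM (1.39 ± 0.19). The PEO4 A libraries held 27.1, 17.9 and 17.3 CPM, and the log2 fold change ranged from 1.15 to 1.51 with 1 library left out. In the B pair ABCC4 did not differ past the threshold (-0.10 ± 0.13).

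ABCC5, ABCC10 and ABCC11 stayed within the fold threshold in every comparison in which they were tested. ABCC5 (another exporter of nucleotide analogues and cyclic nucleotides; chromosome 3, 183919934 to 184017939) read 76.2 ± 6.85 CPM in PEO1 A against 39.0 ± 4.98 in PEO4 A (log2 fold change -0.96 ± 0.10). In the B pair it read 57.2 ± 1.88 against 31.8 ± 2.51 (-0.84 ± 0.07), so the libraries of the lines did not overlap in either pair. After PDS it reached 43.1 ± 1.30 and 38.6 ± 4.29 CPM in PEO1 B and 24 ± 0.463 and 35.4 ± 2.26 in PEO4 B. ABCC10 (multidrug resistance-associated protein 7, on chromosome 6, 43427366 to 43450427) carries taxanes. It was the reverse, at 10.8 ± 0.536 against 18.1 ± 2.85 CPM in the A pair and 11.8 ± 0.599 against 21.0 ± 1.60 in the B pair. It went to 10 ± 0.447 and 9.36 ± 0.180 in PEO1 B after PDS and to 14.8 ± 0.915 and 15.2 ± 1.32 in PEO4 B. ABCC11 averaged 0.152 and 0.107 CPM in the A libraries and between 3.54 and 7.11 CPM in the B conditions. Its exons overlap those of LONP2 on the opposite strand over 289 bases (3.41% of its exon bases), the use of strand in counting is not given in the sources used here, and the B values were not read as its own expression.

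**Figure D1:**
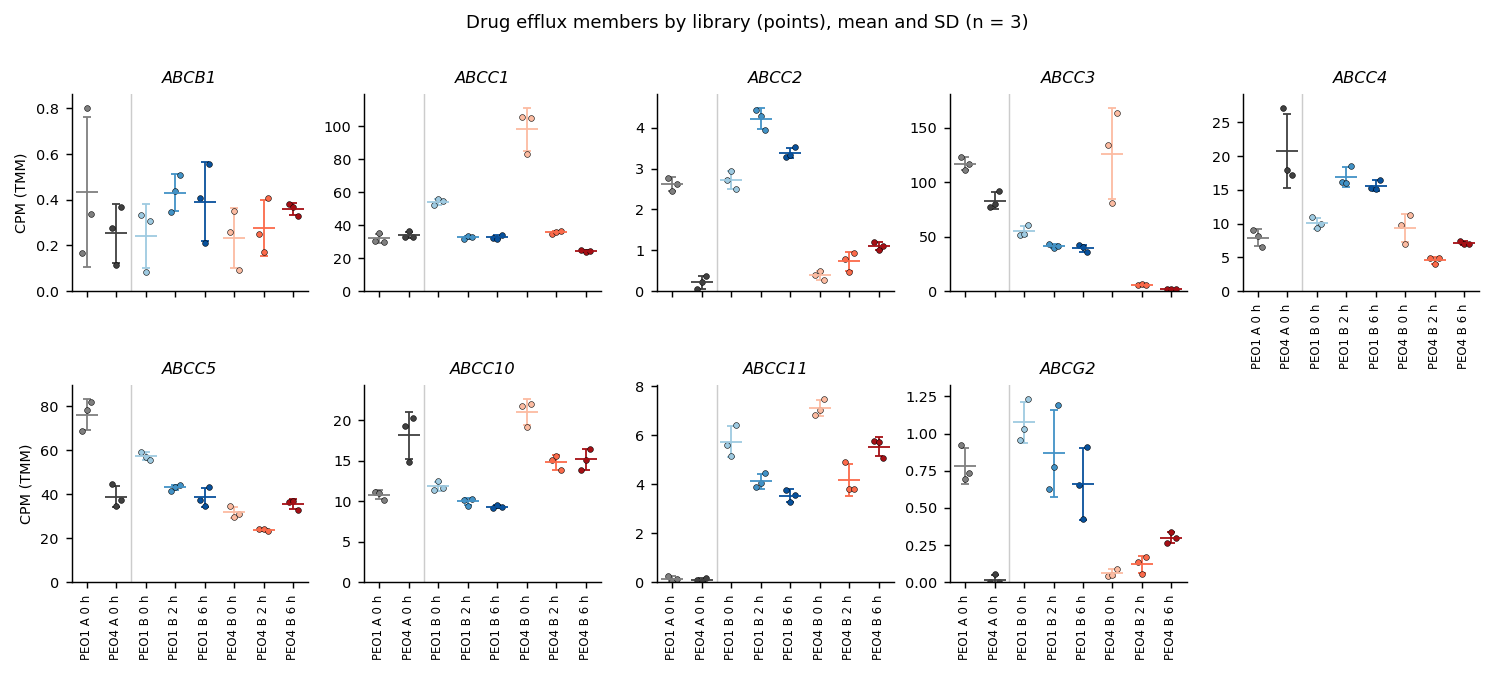
CPM (TMM) of the 9 drug efflux genes tested in the 18-library table, with 1 point per library and the mean and SD of 3 libraries per condition. The grey line separates the 2 tables, untreated is 0 h, and 2 h and 6 h are hours in PDS. ABCC3 in PEO4 B goes from a mean of 126 CPM to 6.06 and 2.13, while ABCG2 stays at or below 0.336 CPM in every PEO4 library.

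Counted together, 1 drug efflux gene was higher (ABCC4) and 2 were lower (ABCC2, ABCG2) of 8 tested in PEO4 A. Of all tested genes, 12.6% were higher and 13.1% lower in that pair. In PEO4 B, 1 of 9 was higher (ABCC3) and 2 were lower (ABCC2, ABCG2), beside 12.2% and 12.6% of all genes. After PDS in PEO4 B, 3 of 9 fell at 2 h (ABCC1, ABCC3, ABCC4), beside 11% of all genes. At 6 h 2 fell (ABCC1, ABCC3) and 2 rose (ABCC2, ABCG2), beside 16.3% and 6.26% of all genes. In PEO1 B, edgeR called 0 of 9 at 2 h and 0 of 9 at 6 h. DESeq2's Wald test also called 0 at both times, although 7 of 9 had an unadjusted p under 0.05 at each time. By adjusted p alone, 2 of 9 passed upward and 4 downward at 2 h, and 1 and 5 at 6 h. Of all genes in PEO1 B, 26.4% and 26.2% passed by that rule at 2 h, and 27% and 26% at 6 h. With the fold threshold, 1.18% of all genes rose and 6.39% fell at 2 h, and 1.29% and 6.83% at 6 h. The summed level of the 10 drug efflux genes per kb of transcript was 49.9 ± 10.1 CPM per kb in untreated PEO4 B (53.2, 38.5 and 57.9), 15.4 ± 0.218 at 2 h and 15.7 ± 0.217 at 6 h. In PEO1 B it was 33.7 ± 0.678, 26.3 ± 0.545 and 24.6 ± 0.720. The untreated order of the lines, PEO4 B above PEO1 B, was thus the opposite after PDS. That untreated order did not hold in the A pair, with 42.9 ± 0.222 CPM per kb in PEO1 A and 33.8 ± 1.73 in PEO4 A. ABCC3 alone supplied 22.2 CPM per kb of the untreated PEO4 B sum. ABCC11, whose B values were not read as its own expression, supplied 1.21 CPM per kb of it.

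Among the sterol and lipid transporters, 6 of 11 tested were lower in PEO4 A and 5 of 11 in PEO4 B, and 1 was higher in both, ABCA12. Of all tested genes, 13.1% were lower and 12.6% higher in the A pair, and 12.6% and 12.2% in the B pair. ABCA12 (a lipid transporter of the skin barrier; chromosome 2, 214931542 to 215138626) held 1.21, 0.747 and 1.5 CPM in PEO1 A against 9.77, 11.8 and 11.9 in PEO4 A, and 1.44, 2.48 and 1.71 in PEO1 B against 11.3, 8.14 and 11.7 in PEO4 B. The log2 fold changes were 3.24 ± 0.22 and 2.46 ± 0.19 (edgeR adjusted p = 8.25e-08 and 3.06e-11). ABCA3 (a surfactant lipid transporter of lung alveolar cells; chromosome 16, 2275881 to 2340746) was the most abundant of those that were lower, with 98.1, 93.8 and 87.4 CPM in PEO1 A against 17.2, 12.4 and 18.3 in PEO4 A, and 73.7 ± 3.27 in PEO1 B against 5.45 ± 0.482 in PEO4 B (-2.54 ± 0.13 and -3.76 ± 0.10).

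The other lower lipid transporters were at or below a few CPM. ABCA1 (cholesterol and phospholipid efflux to apolipoprotein A-I; chromosome 9, 104781006 to 104928155) held 357, 157 and 288 counts in PEO1 A against 65, 46 and 38 in PEO4 A, and 43, 84 and 49 in PEO1 B against 5, 13 and 14 in PEO4 B (log2 fold change -2.31 ± 0.25 and -2.37 ± 0.33). ABCB4, the phosphatidylcholine floppase of bile, held 127, 94 and 107 counts against 13, 12 and 6 in the A pair and 11, 15 and 14 against 0, 3 and 4 in the B pair (-3.32 ± 0.35 and -2.40 ± 0.60). The second moved to -1.78 without PEO4 B replicate 1 and to -3.00 without replicate 3. ABCA13 differed by -2.16 ± 0.39 and -2.06 ± 0.38, and ABCG4, a sterol transporter of the brain, by -3.02 ± 0.31 and -1.74 ± 0.32. ABCG1, which moves cholesterol to lipoproteins, was lower in PEO4 A (1.19 ± 0.0970 against 0.181 ± 0.110 CPM, -2.57 ± 0.44, and -3.30 without PEO4 A replicate 1). In the B pair, at 2 to 9 counts a library, it did not pass the test (-1.26 ± 0.63, edgeR adjusted p = 0.0782).

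ABCA4, the retinoid lipid flippase of photoreceptors (chromosome 1, 93992834 to 94121148), had the highest mean level per length of all members in the A pair, at 30.9 CPM per kb in PEO1 A and 54.7 in PEO4 A. It ranked 9 in untreated PEO1 B (9.30) and 5 in untreated PEO4 B (15.7). It did not pass the fold threshold between untreated lines (0.82 ± 0.12 and 0.76 ± 0.08), but it fell after PDS in both. PEO4 B went from 102, 115 and 128 CPM to 18.7, 21.5 and 16.4 at 2 h and 11.8, 10.8 and 11.6 at 6 h (log2 fold change -2.61 ± 0.09 and -3.33 ± 0.09). PEO1 B went from 66.6, 67.2 and 70.7 to 27.2, 27.5 and 29.3 and then 27.0, 25.2 and 23.7 (-1.28 ± 0.08 and -1.43 ± 0.08). No PDS library overlapped an untreated one. The fall was larger in PEO4 B, with a difference of -1.33 ± 0.12 at 2 h and -1.91 ± 0.12 at 6 h on the log2 scale (edgeR adjusted p = 3.59e-09 and 1e-11).

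ABCA2 and ABCA12 fell in PEO4 B and not in PEO1 B, and the difference between the lines passed the test at both times. ABCA2 (an endosomal and lysosomal lipid transporter, abundant in myelinating cells; chromosome 9, 137007234 to 137028915) held 30.1, 22.3 and 45 CPM in untreated PEO4 B, 7.94, 10.5 and 6.00 at 2 h and 1.91, 1.77 and 2.10 at 6 h (-2.01 ± 0.22 and -4.08 ± 0.27). In PEO1 B it read 31.2 ± 3.46, 27.2 ± 1.1 and 25.5 ± 1.37 CPM (-0.20 ± 0.21 and -0.29 ± 0.21), and the difference between the lines was -1.81 ± 0.30 and -3.79 ± 0.35. ABCA12 went from 10.4 ± 1.95 to 2.21 ± 0.187 and 1.26 ± 0.146 CPM in PEO4 B (-2.23 ± 0.18 and -3.04 ± 0.19). In PEO1 B it read 1.88 ± 0.540, 2.77 ± 0.508 and 2.16 ± 0.347 CPM, so that the ranges of the 2 lines, apart in untreated cells, overlapped at 2 h. ABCA7, which is related to ABCA1, fell at 6 h in PEO4 B (11.9 ± 1.02 to 5.45 ± 0.603 CPM, -1.12 ± 0.13).

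ABCG1 held 3, 4 and 2 counts in untreated PEO4 B, 1, 0 and 0 at 2 h and 2, 0 and 0 at 6 h. By summed counts it was 15.7-fold lower at 2 h (95% exact interval 2.18 to 689) and 7.52-fold lower at 6 h (1.56 to 71.5). Both were called (edgeR adjusted p = 0.00733 and 0.0191). The fitted log2 fold changes, -3.48 and -2.68, depend on 1 and 2 counts and moved to -5.14 and -5.13 without replicate 1 of the PDS group. The 6 h call was lost without untreated replicate 2 (adjusted p = 0.0756) or without 6 h replicate 2 or 3 (0.0621 and 0.0632). In PEO1 B it fell at 6 h from 7, 9 and 7 counts to 6, 1 and 3 (-1.78 ± 0.60), a call lost without untreated replicate 2 (adjusted p = 0.0523) or 6 h replicate 2 (0.0787), with -2.43 without 6 h replicate 1.

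In PEO4 B, the lipid transporters ABCA13 and ABCB4 rose at both times after PDS, ABCA1 at 6 h and ABCA3 at 2 h. ABCA13 went from 5, 8 and 7 counts to 32, 45 and 48 at 2 h and 66, 38 and 37 at 6 h (log2 fold change 1.82 ± 0.37 and 2.04 ± 0.37). ABCB4 went from 0, 3 and 4 counts to 23, 13 and 22 and then 24, 9 and 12 (2.20 ± 0.58 and 1.89 ± 0.61). Without untreated replicate 1, the library at 0, the ABCB4 values were 1.59 and 1.28, and without untreated replicate 3 they were 2.81 and 2.49. The 6 h call was lost without that replicate 1 (adjusted p = 0.0587) and without 6 h replicate 1 (0.0518). ABCA1 rose at 6 h (5, 13 and 14 counts to 36, 40 and 53, 1.27 ± 0.36), a call lost without untreated replicate 1 (0.90). ABCA3 rose at 2 h from 4.98, 5.42 and 5.94 CPM to 13.0, 15 and 10.9 (1.25 ± 0.11) and fell again by 6 h (6.41 ± 0.725 CPM, -1.01 ± 0.10 against 2 h). That last call was lost when counts were thinned (-0.89) and without replicate 2 of the 2 h (-0.89) or 6 h group (-0.93).

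In PEO1 B, ABCA3 and ABCG4, both higher there than in PEO4 B, fell after PDS. ABCA3 went from 70.1, 74.6 and 76.5 CPM to 32.2, 32.1 and 33.5 and then 31.5, 28.3 and 29.6 (log2 fold change -1.18 ± 0.08 and -1.31 ± 0.08). ABCG4 went from 43, 44 and 54 counts to 19, 19 and 18 and then 33, 16 and 21, in libraries of greater depth (-1.94 ± 0.30 and -1.63 ± 0.29). In PEO4 B, ABCG4 was within the threshold against untreated cells at both times (0.16 ± 0.35 and -0.90 ± 0.40) and lower at 6 h than at 2 h (-1.06 ± 0.35), a call lost without replicate 3 of the 2 h (-0.82) or 6 h group (-0.73). Summed per kb, the 17 lipid transporters went from 24.4 ± 3.26 to 8.29 ± 1.17 and 4.43 ± 0.323 CPM per kb in PEO4 B, and from 27.1 ± 0.904 to 14.0 ± 0.235 and 12.9 ± 0.847 in PEO1 B.

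**Figure D2:**
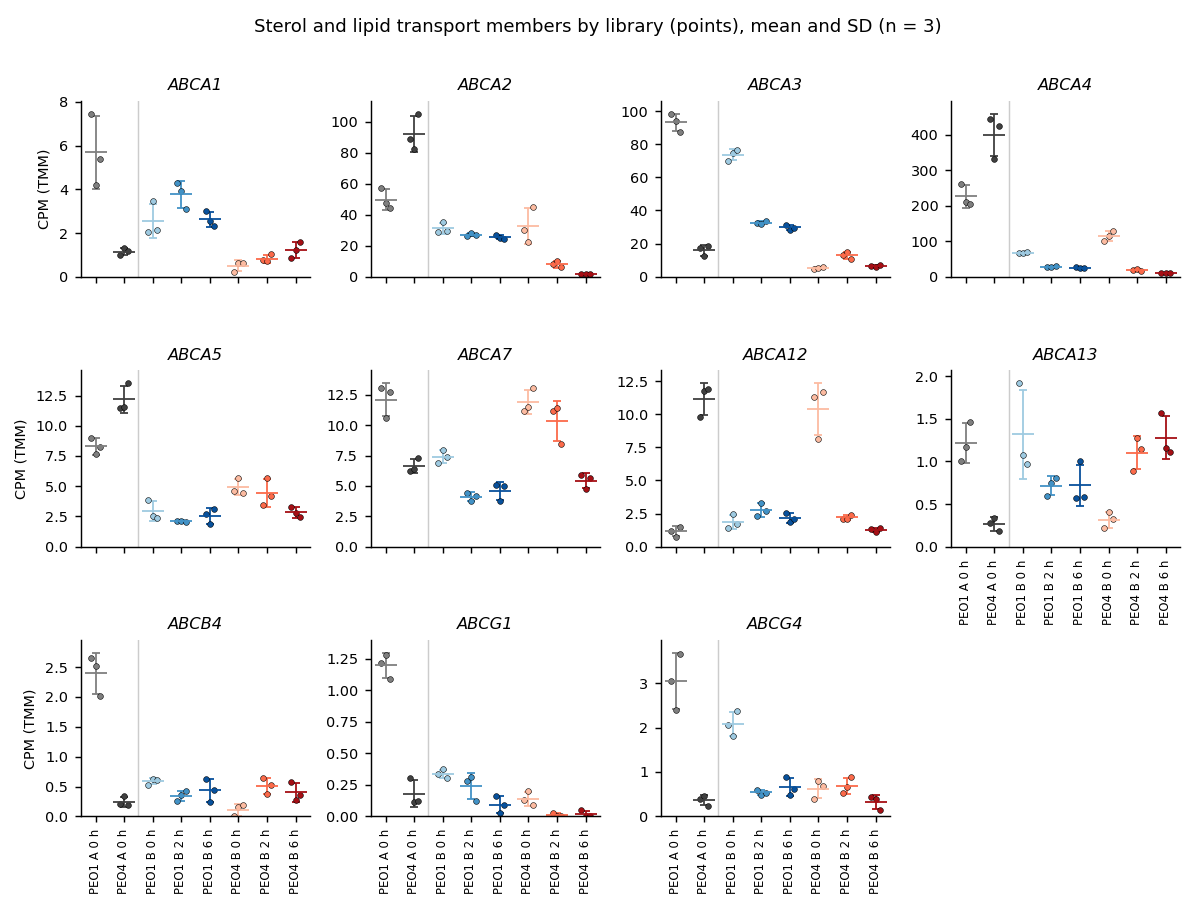
CPM (TMM) of the 11 tested sterol and lipid transport genes, with 1 point per library and the mean and SD of 3 libraries per condition. The grey line separates the 2 tables, untreated is 0 h, and 2 h and 6 h are hours in PDS. ABCA2 in PEO4 B goes from a mean of 32.5 CPM to 8.14 and 1.92 and stays between 25.5 and 31.2 in PEO1 B.

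The mitochondrial and lysosomal genes varied less. ABCB8, an inner membrane transporter linked to iron export, read 18.7, 10.7, 22.6 and 19.7 CPM per kb in untreated PEO1 A, PEO4 A, PEO1 B and PEO4 B. ABCB6, a porphyrin transporter, was higher in PEO4 A (7.03 ± 0.241 against 2.76 ± 0.380 CPM, log2 fold change 1.34 ± 0.17) and read 0.35 ± 0.15 in the B pair. It fell at 6 h in PEO1 B (6.71 ± 0.936 to 3.23 ± 0.238 CPM, -1.05 ± 0.16), a call lost in thinned counts (-0.89), without untreated replicate 3 (-0.96) and without 6 h replicate 2 (-0.99). ABCB9, a lysosomal peptide transporter, was called only in the difference of the 6 h responses (1.0 ± 0.15), with 8.34 ± 1.14 to 13.3 ± 0.678 CPM in PEO4 B and 6.92 ± 0.704 to 5.51 ± 0.284 in PEO1 B. That call was lost under each other scaling (0.98 to 0.99), and 12% and 12.5% of its exon bases overlap ARL6IP4 and OGFOD2 on the opposite strand. The heme-linked ABCB10 was called in no comparison, with group means of 15 to 28.2 CPM. In PEO4 B after PDS edgeR and DESeq2 both called 0 of these 5 genes at 2 h and at 6 h, with 4 and 5 at an unadjusted p under 0.05. By adjusted p alone, 2 passed upward and 2 downward at 2 h, and 3 and 2 at 6 h. Of all genes there, 33.3% and 32% passed by that rule at 2 h, and 34.6% and 35.2% at 6 h. With the fold threshold, edgeR called 6.4% of all genes up and 11% down at 2 h, and 6.26% and 16.3% at 6 h.

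Of the peroxisomal and cobalamin genes, ABCD3 (a fatty acid importer of the peroxisome) was called in no comparison, at 98.6 ± 2.60 and 55.6 ± 1.71 CPM in the A pair and between 49.6 and 63.7 in the B conditions. ABCD4, a lysosomal cobalamin exporter, was higher in PEO4 B (42.3 ± 5.52 against 20.6 ± 1.61 CPM, 1.04 ± 0.09), a call lost without PEO1 B replicate 3 (0.98) or PEO4 B replicate 3 (0.95), and read 0.68 ± 0.08 in the A pair.

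ABCC9, the regulatory subunit of a potassium channel, rose in PEO1 B from 3.40, 1.94 and 2.94 CPM to 6.96, 6.72 and 6.89 at 2 h and 6.08, 6.70 and 7.54 at 6 h (log2 fold change 1.32 ± 0.20 and 1.30 ± 0.20). It was the only member that rose in PEO1 B. In PEO4 B it rose by 6 h (2.60, 3.42 and 1.75 to 7.30, 7.45 and 9.25 CPM, 1.63 ± 0.20) and between 2 and 6 h (1.16 ± 0.18, and 0.99 without 2 h replicate 2, where the call was lost). It was higher in PEO4 A than PEO1 A (1.20 ± 0.33), a call lost without PEO1 A replicate 1 (0.91) or PEO4 A replicate 3 (0.97). ABCC6, which limits ectopic mineralization, was higher in PEO4 B, with 13, 15 and 17 counts against 2, 6 and 8 (1.55 ± 0.40). It fell in PEO4 B to 6, 6 and 7 counts at 2 h (-2.03 ± 0.39) and to 3, 2 and 3 at 6 h, 9.40-fold by summed counts (95% exact interval 4.38 to 23.1). In PEO1 B it held 2 counts in each 6 h library, 4.08-fold below untreated (1.52 to 12.7, -1.95 ± 0.59), a call lost when counts were thinned (edgeR adjusted p = 0.144) and without untreated replicate 3 (0.0759). ABCC6 has close pseudogene copies, so its reads may be split among them.

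The 3 tested translation genes do not transport. ABCF3 read 27.4, 25.2, 26.8 and 23.1 CPM per kb in untreated PEO1 A, PEO4 A, PEO1 B and PEO4 B and was called in no comparison. ABCF2 stood above it in untreated PEO1 B (48.3 CPM per kb) and below it in the other groups (7.61, 4.41 and 19.3). ABCF2 was lower in PEO4 B (223, 207 and 225 CPM in PEO1 B against 94.3, 87.4 and 79.7, log2 fold change -1.33 ± 0.06) and read -0.78 ± 0.10 in the A pair. Its mean was 34.4 CPM in PEO1 A and 219 in PEO1 B, a gap between tables that was not tested. ABCE1, the ribosome recycling factor, read 95.8 ± 4.12, 130.3 ± 2.19 and 133 ± 2.62 CPM in PEO1 B and 53.4 ± 4.40, 69.1 ± 6.75 and 95.8 ± 1.01 in PEO4 B (0.84 ± 0.07 at 6 h, within the fold threshold). The summed level of all members per kb was 240 and 228 CPM per kb in PEO1 A and PEO4 A, stayed between 221 and 227 in PEO1 B and went from 199 ± 11.2 to 149 ± 3.96 and 173 ± 0.706 in PEO4 B. Translation genes made up 28.2% of that sum in untreated PEO4 B and 49.8% at 6 h, and drug efflux genes 24.9% and 9.10%. These sums take ABCF1 at its listed 0 and include ABCC11, although neither was read as a level. The sums and shares therefore hold for the listed counts only.

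**Figure D3:**
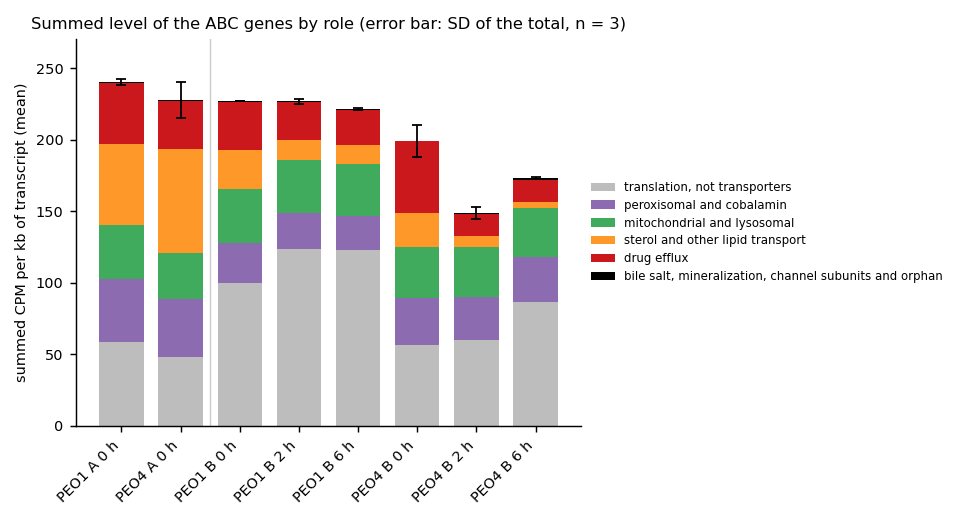
Summed level of the ABC genes by role in CPM per kb of transcript, as stacked means of 3 libraries for each of the 8 conditions, with the SD of the total as error bar. The grey line separates the 2 tables. The total in PEO4 B goes from 199 to 149 and 173 and stays between 221 and 227 in PEO1 B.

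Over all roles, 4 members were higher and 8 lower of 32 tested in PEO4 A than in PEO1 A, where 12.6% of all 15882 tested genes were higher and 13.1% lower. In the B pair, 4 were higher and 8 lower of 33, against 12.2% and 12.6% of 17020 genes. Taken over members, log2 fold changes had a median of -0.42 and -0.09, and over all genes of -0.01 in the A pair and close to 0 in the B pair. Of the 32 members tested in both pairs, 12 were called in each, and 8 of them the same way in both (66.7% of each list, beside 57.6% and 59.5% for all genes). These were ABCA12, higher, and ABCA1, ABCA3, ABCA13, ABCB4, ABCC2, ABCG2 and ABCG4, lower. The pairs share no library. No member was called in opposite directions, and of all 15396 genes tested in both tables only 117 were. The sign was the same in both pairs for 28 of the 32 members, beside 11236 of the 15396 genes.

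**Figure D4:**
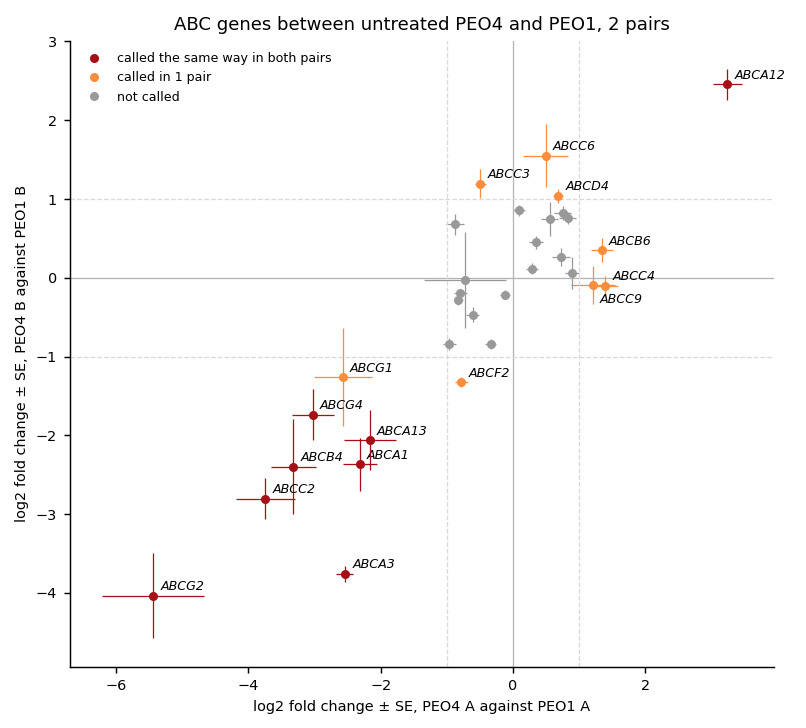
Log2 fold change of the 32 ABC genes tested in both tables, untreated PEO4 against PEO1, with the A pair on the horizontal and the B pair on the vertical axis and standard errors as bars. The 8 genes called the same way in both pairs lie far from 0 on both axes, with ABCA12 at 3.24 and 2.46 and ABCG2 at -5.44 and -4.04, and dashed lines mark the fold threshold.

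After PDS in PEO1 B, 1 of 33 members rose and 4 fell at 2 h (1.18% and 6.39% of all genes), and 1 rose and 7 fell at 6 h (1.29% and 6.83%). In PEO4 B, 3 rose and 8 fell at 2 h (6.4% and 11% of all genes), and 6 rose and 8 fell at 6 h (6.26% and 16.3%). All PDS comparisons of a line share its untreated libraries. Between 2 and 6 h, edgeR called 0 members higher and 0 lower in PEO1 B (0.0705% and 0.0999% of all genes), as did DESeq2, with 3 at an unadjusted p under 0.05, and in PEO4 B it called 2 higher (ABCC9, ABCG2) and 4 lower (ABCA2, ABCA3, ABCC3, ABCG4; 2.27% and 9.71%). The ABCG2 call among these (1.24 ± 0.48) was lost in thinned counts (0.59) and without 2 h replicate 2 (0.93) or 6 h replicate 2 (1.16) or 3 (1.24). Median member changes were -0.31 and -0.33 in PEO1 B and -0.15 and -0.36 in PEO4 B at 2 and 6 h, beside 0 to -0.03 over all genes. With library totals in place of TMM, all-gene calls in PEO4 B at 6 h shifted from 1066 up and 2782 down to 698 up and 3334 down.

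The response itself differed between the lines for 9 members at 2 h, 4 higher and 5 lower in PEO4 B (6.1% and 4.92% of all genes), and for 13 at 6 h, 7 higher and 6 lower (5.42% and 9.34%), by the test of the difference. At 2 h the lower ones were ABCA2, ABCA4, ABCA12, ABCC3 and ABCC4, and the higher ones ABCA3, ABCA13, ABCB4 and ABCG4. Drug efflux genes made up 5 of the 13 at 6 h, with ABCC1, ABCC3 and ABCC4 lower and ABCC2 and ABCG2 higher in PEO4 B. By adjusted p alone, with no fold threshold, 12 members were higher and 16 lower in the A pair (30.1% and 31.6% of all genes) and 13 and 14 in the B pair (34% and 34.6%). By the same rule 8 rose and 12 fell in PEO1 B at 2 h (26.4% and 26.2%), and 6 and 15 at 6 h (27% and 26%). In PEO4 B, 8 and 15 passed at 2 h (33.3% and 32%), 13 and 17 at 6 h (34.6% and 35.2%), and 11 and 10 between the times (28.9% and 31.3%). Between 2 and 6 h in PEO1 B none of 33 passed in either direction in edgeR (3.96% and 2.98% of all genes). For the differences between the lines 7 and 9 passed at 2 h (19.3% and 18%) and 13 and 7 at 6 h (24.4% and 23%). All 3 translation genes passed upward by that rule in PEO1 B at both times and in PEO4 B at 6 h, each within the fold threshold.

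**Figure D5:**
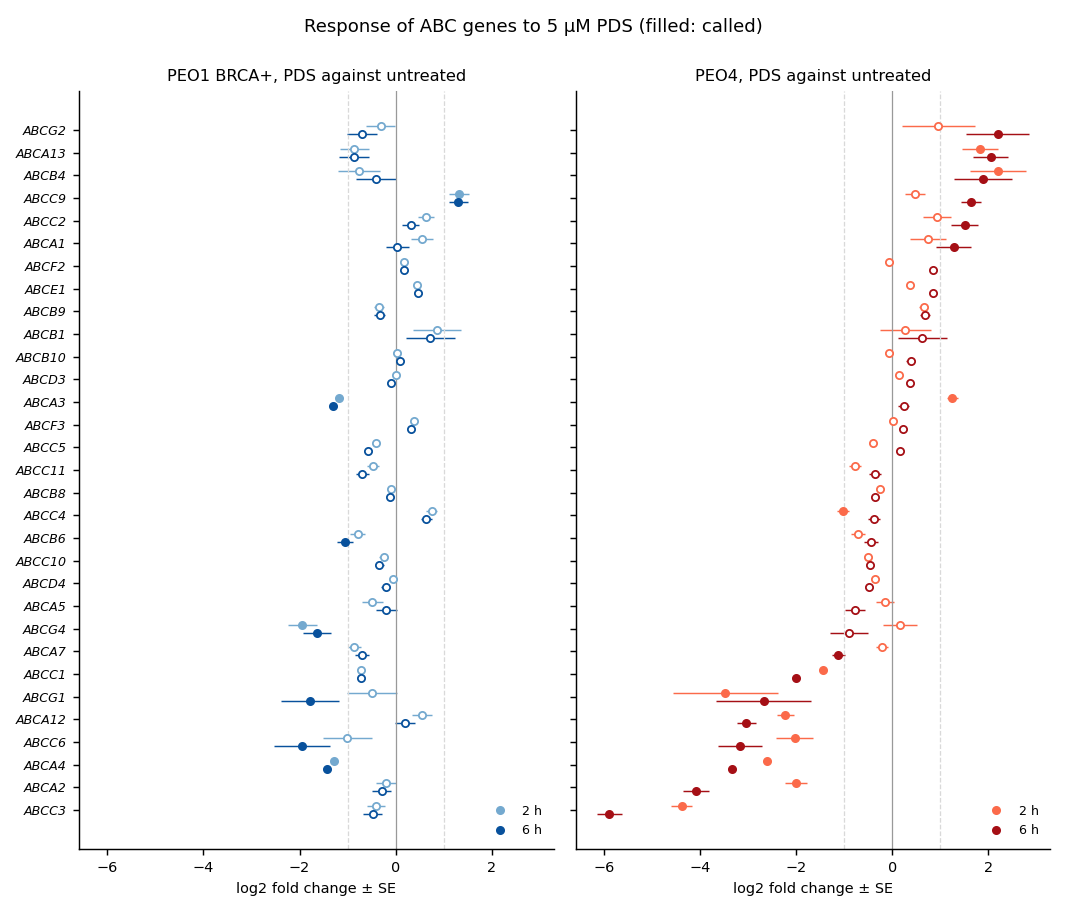
Log2 fold change after PDS against untreated cells for 31 of the 33 tested ABC genes, in PEO1 B (left, titled PEO1 BRCA+) and PEO4 B (right), with standard errors as bars. Light symbols are 2 h, dark symbols 6 h and filled symbols called genes, and dashed lines mark the fold threshold. ABCC3 lies at -5.88 in PEO4 B at 6 h and at -0.48 in PEO1 B.

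Among transporters and regulators outside the symbol rule, SLC47A2, a drug and cation extruder, was higher in PEO4 in both pairs (6.75 ± 0.386 against 0.106 ± 0.0636 CPM in the A pair, log2 fold change 5.93 ± 0.32, and 5.00 ± 0.43 in the B pair). It fell in PEO4 B after PDS from 3.90 ± 0.747 to 0.409 ± 0.178 and 0.235 ± 0.0613 CPM (-3.27 ± 0.31 and -4.05 ± 0.34). Its neighbour in function SLC47A1 was lower in PEO4 (-2.22 ± 0.27 and -1.99 ± 0.27) and fell in PEO4 B at 2 h (-1.01 ± 0.34, with overlapping libraries). These were the genes called in that list of 6 other exporters between the lines, 1 higher and 1 lower in each pair. Of all genes, 12.6% were higher and 13.1% lower in the A pair, and 12.2% and 12.6% in the B pair. The copper and platinum pump ATP7B fell in PEO1 B at 6 h (-1.39 ± 0.14). TAP2, an ABC peptide transporter under another name and the 1 tested gene of 3 such, read 2.15 ± 0.11 in the A pair and 0.98 ± 0.08 in the B pair, the second within the fold threshold. It lies in the MHC region, where many genes were listed at 0, so neither value was read as a change in level.

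Of 10 genes for the sterol receptor LXR, its partners and its targets outside the family, 2 passed the test as higher in PEO4 in each pair. Of all genes, 12.6% were higher in the A pair and 12.2% in the B pair. The 2 were MYLIP (1.78 ± 0.14 and 2.91 ± 0.12), which degrades the LDL receptor, and the receptor partner RXRB (1.15 ± 0.39 and 1.11 ± 0.23). RXRB also lies in the MHC region, and its low values, from 1.37 ± 0.259 to 0.350 ± 0.0570 CPM in PEO1 B at 2 h and from 2.96 ± 0.282 to 0.556 ± 0.143 in PEO4 B, were likewise not read as levels. SREBF1 (-1.46 ± 0.14) and APOE (-1.24 ± 0.28) also fell in PEO4 B at 6 h. Of 10 genes of the oxidative stress factor NRF2, 1 was higher and 3 were lower in PEO4 A (12.6% and 13.1% of all genes). Among these, HMOX1 read -4.14 ± 0.23 and GCLM -2.19 ± 0.14. In the B pair all 4 of these genes were within the fold threshold, with GCLC at 0.78, HMOX1 at -0.80, GCLM at -0.96 and SRXN1 at -0.91. OSGIN1 of that list rose in PEO4 B at 2 h (1.67 ± 0.15) and was lower at 6 h than at 2 h (-1.36 ± 0.13).

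Of 5 tested xenobiotic receptors and their targets, CYP1A1 and CYP1B1, targets of the aryl hydrocarbon receptor, were higher in PEO4 B (1.02 ± 0.22 and 2.00 ± 0.09). Both fell in PEO1 B (-1.58 ± 0.26 and -1.31 ± 0.10 at 2 h, -2.36 ± 0.29 and -1.82 ± 0.10 at 6 h), and CYP1B1 fell in PEO4 B at 6 h (-1.45 ± 0.08). Of all genes, 12.2% were higher in untreated PEO4 B, and 6.39% and 6.83% fell in PEO1 B at 2 and 6 h. Among 10 partner proteins, LMBRD1, the lysosomal partner of ABCD4, was higher in PEO4 (1.70 ± 0.09 and 2.13 ± 0.09), and the kinase EIF2AK4 was lower in PEO4 A (-1.23 ± 0.08). KCNJ11, a channel pore that assembles with ABCC8 and ABCC9 type subunits, fell in PEO1 B (-1.62 ± 0.20 and -1.07 ± 0.19) and PEO4 B (-1.49 ± 0.20 and -1.81 ± 0.21). MMACHC, which handles cobalamin after ABCD4, rose in PEO4 B at 6 h (1.31 ± 0.09).

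Beside the PDS results of PEO4 B, the summed level of 5 fibroblast markers was between 29.7 and 31.1 CPM in untreated libraries and between 3.29 and 4.49 CPM at 6 h, and in PEO1 B it was between 5.14 and 7.19 and then between 2.73 and 3.66. COL1A1 in PEO4 B read 22.1 ± 7.52, 5.87 ± 0.868 and 2.80 ± 0.599 CPM, and its part in the ABC gene results was not tested. Leukocyte markers summed to 32.2 to 54.5 CPM in untreated PEO4 B and 68.0 to 78.0 at 6 h, nearly all from CD68, with at least 3 of 5 genes under 0.1 CPM in every library. The summed endothelial markers of PEO4 B were between 1.61 and 2.76 CPM untreated and between 0.183 and 0.210 at 6 h, and no endothelial marker reached 1 CPM in all libraries of a condition. The part of these lists in the ABC gene results was not tested either. The epithelial markers were present at all times, with summed levels of 5850 to 7840 CPM untreated and 6800 to 6970 at 6 h in PEO4 B.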

How the data were processed

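RNA of cell line cultures was sequenced, and the authors deposited whole-number counts per gene in 2 tables, without normalization. The labels name FastQC, fastp, STAR, featureCounts and hg38. Versions, annotation and strand setting are not given in the sources used here, and a directional poly(A) kit is stated for the A libraries alone. In all, 2 and 1 lines without readable counts were left out, and all columns of per-sample values were used. Tables were fitted apart in R 4.3.3 with edgeR 4.0.16: filterByExpr (minimum count 10, minimum total 15), TMM, and a robust quasi-likelihood fit with 1 mean per condition over all libraries of a table, with 4 and 12 residual degrees of freedom. P-values were adjusted over all tested genes. Lengths and positions came from GENCODE release 44, and CPM per kb divide by transcript length. Count ratios have exact binomial intervals. Depth was 18699929 to 63882077 counts per library, and replicate pairs differed by more than sampling noise (chi-square per degree of freedom 2.13 to 52.1 over 24 pairs), so none was counted as a duplicate. Scripts were tested on simulated data.

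The members, roles and lists were chosen with earlier results of these data known. Named were all tested drug efflux genes, every other member called in a comparison, the member of each role with the highest level per length over untreated libraries, and of each other list the called genes with the 2 largest changes per comparison. ABCB10, ABCE1 and the untested genes were named after their values were seen, and the values of 2 tested members are not reported here, though counts and sums include them. Alternatives were library totals, DESeq2 size factors or upper-quartile scaling, DESeq2 1.42.0, other filters, adjusted p alone, the compared groups alone, a replicate block, thinning to the smallest library and each library left out.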

Additional observations from a re-analysis of the deposited data

Results flagged for a closer look

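For 22 results, the PDS response of an ABC gene differed between the lines by the test of the difference itself, edgeR's interaction term of PEO4 B minus PEO1 B, as a log2 difference past the threshold. They were 4 higher and 5 lower of 33 at 2 h (6.1% and 4.92% of all genes), and 7 higher and 6 lower at 6 h (5.42% and 9.34%). The responses at 2 and 6 h share their untreated libraries.

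Lower in PEO4 B at 2 h were ABCC3 (-3.97), ABCA12 (-2.79), ABCA2 (-1.81), ABCC4 (-1.78) and ABCA4 (-1.33). At 6 h they were ABCC3 (-5.40), ABCA2 (-3.79), ABCA12 (-3.23), ABCA4 (-1.91), ABCC1 (-1.28) and ABCC4 (-1.03). ABCC1, ABCC3, ABCA2, ABCA4 and ABCA12 fell in PEO4 B at both times, and of them ABCA4 also fell in PEO1 B.

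Higher in PEO4 B at 2 h were ABCB4 (2.96), ABCA13 (2.68), ABCA3 (2.42) and ABCG4 (2.10), and at 6 h ABCA13 (2.91), ABCG2 (2.89), ABCB4 (2.3), ABCA3 (1.54), ABCA1 (1.25), ABCC2 (1.20) and ABCB9 (1.0). ABCA3 rose in PEO4 B at 2 h and fell in PEO1 B at both times. ABCA1, ABCA13, ABCB4, ABCC2 and ABCG2 rest on 0 to 14 counts in each untreated PEO4 B library. Without PEO4 B untreated replicate 1, ABCB4 was 2.34 at 2 h and 1.68 at 6 h, and without its replicate 3 it was 3.57 and 2.91. The 6 h calls of ABCA1, ABCB4, ABCB9 and ABCC4 were lost without at least 1 library: ABCA1 without PEO1 B untreated replicate 2 (0.95), PEO4 B untreated replicate 1 (0.86) or 6 h replicate 3 (1.01, adjusted p = 0.0704), ABCB4 without PEO4 B untreated replicate 1 (adjusted p = 0.0545) or 6 h replicate 1 (1.93, adjusted p = 0.0534), ABCB9 between 0.91 and 0.99 without 1 of 6 libraries, and ABCC4 between -0.999 and -0.88 without 1 of 4.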

How the results depend on the processing

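Of 90 named fold changes, 72 kept their call and direction in every setting run, 18 lost the call in 1 or more, and 0 reversed. In all, 1449 of 1502 values kept their call and 53 did not, and the cause was not tested. The kept values include 1 per named result from adjusted p alone, a setting in which a call cannot be lost. By adjusted p alone, members up and down were 12 and 16 (PEO4 A against PEO1 A), 13 and 14 (PEO4 B against PEO1 B), 8 and 12 (PEO1 B, 2 h), 6 and 15 (PEO1 B, 6 h), 8 and 15 (PEO4 B, 2 h), 13 and 17 (PEO4 B, 6 h), 11 and 10 (PEO4 B, 6 h against 2 h), 7 and 9 (difference at 2 h) and 13 up (difference at 6 h), more because the fold threshold is absent. A minimum count of 50, which tests fewer genes, gave 5 down in each line comparison, 1 and 3 up in PEO4 B at 2 and 6 h, 1 up at 6 h against 2 h, and 2 and 3 up in the differences. Thinned counts gave 4 down in PEO1 B at 6 h and 1 up in PEO4 B at 6 h against 2 h, as did the compared groups alone. With 1 library left out, members up and down ranged from 3 to 4 and 8 to 9 (A pair), 2 to 4 and 8 to 8 (B pair, 2 without PEO4 B replicate 3), 1 to 1 and 4 to 5 (PEO1 B, 2 h), 1 to 1 and 6 to 7 (PEO1 B, 6 h), 3 to 4 and 7 to 8 (PEO4 B, 2 h), 4 to 6 and 7 to 9 (PEO4 B, 6 h), 0 to 2 and 3 to 4 (PEO4 B, 6 h against 2 h, 0 without 2 h replicate 2), 4 to 5 and 5 to 6 (difference at 2 h) and 4 to 7 and 5 to 6 (difference at 6 h, 4 without PEO4 B untreated replicate 1). Library totals moved the median of all genes after PDS to between -0.19 and -0.13, from 0 to -0.03 under TMM. The replicate block left all counts as they were, for example 6 up and 8 down in PEO4 B at 6 h. Same-numbered libraries did not deviate together (correlations -0.043 to 0.023 in the A table and -0.158 to 0.134 over 45 pairs in the B table), so the numbers do not pair them. Depth limits ABCB1, ABCG1, ABCG2 and ABCC6, which held at most 75 counts per library.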
